A study of Mus musculus with 8 samples.

Results

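Gene expression was compared between the control cultures of mouse 46C embryonic stem cells before differentiation. One carried a control hairpin RNA (shCtrl) and the other was wild type (WT), both at day 0. They are 2 of the 8 libraries of the series, taken by their labels, and each group has 1 library. The labels give the strain of the 46C cells as C57BL/6, which was not checked here. In this line the neural gene Sox1 is tagged with a fluorescent reporter. At day 0 the cells grew on irradiated mouse embryonic fibroblasts in serum with the cytokine LIF. The other day 0 libraries were a line with a hairpin against Mef2c (shMef2c) and a line labelled LincNDIME_KO (KO), and the same 4 groups were also profiled at day 5 as neural progenitor cells. The labels do not say whether a line is 1 clone or a pool, how the hairpins were delivered, or how many passages separate the lines. Since each side is a single library, nothing could be tested, and what follows describes these libraries rather than the lines.

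Embryonic stem cells in serum and LIF move between states that lie nearer to the early embryo or to the implanting epiblast, and the genes of those states fluctuate among cells. Long culture also selects for faster growing cells, in which whole chromosomes may be gained. The transcription factor p53 is abundant in these cells and switches on genes for cell cycle arrest, death and repair.

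The libraries were of like depth, with 20769916 estimated reads in shCtrl and 20883674 in WT. Of 19011 genes in the table, 11921 had a mean of 1 RPKM or more over the pair (reads scaled to transcript length and library size), and the results are about these. Ratios are log2((shCtrl + 1)/(WT + 1)) on RPKM, so a positive ratio means higher in shCtrl, and genes were called at 2-fold or more. The median ratio of all genes was 0.007. All 8 pluripotency markers were above the minimum in both libraries, between 133.89 and 1106.61 RPKM in shCtrl and between 81.15 and 891.28 RPKM in WT. Of 8 markers of extraembryonic endoderm, 7 were under 1 RPKM in each library. The 11 markers of feeder fibroblasts summed to 225.87 RPKM in shCtrl and 219.6 RPKM in WT.

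The controls were close for most genes. Among what differed were a lower level of most genes of chromosome 11 in shCtrl, a higher level of p53 target genes in shCtrl, and a lower level of a group of germ cell genes with Dppa3 and the X-linked gene Usp26. At the 2-fold limit 151 genes (1.27% of 11921) were called, 90 of them higher (0.755%) and 61 lower (0.512%) in shCtrl. Of the 151, 21 have no name beyond a Gm, Rik or LOC symbol or none at all, and 2 rest on under 20 reads. At 1.5-fold, 814 genes differed (6.83%), with 386 higher (3.24%) and 428 lower (3.59%). Just past the 2-fold limit stood Macrod1, Ccl3 and Eda2r (ratios up to 1.009) on the higher side and Stac2, Plxdc1 and Snurf (down to -1.017) on the lower. Just short of it stood Plk2, Arhgap15 and H2afj (0.993 to 0.984), and Rnf213, Entpd4 and Dmrtc1c1 (-0.99 to -0.976).

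**Figure D1:**
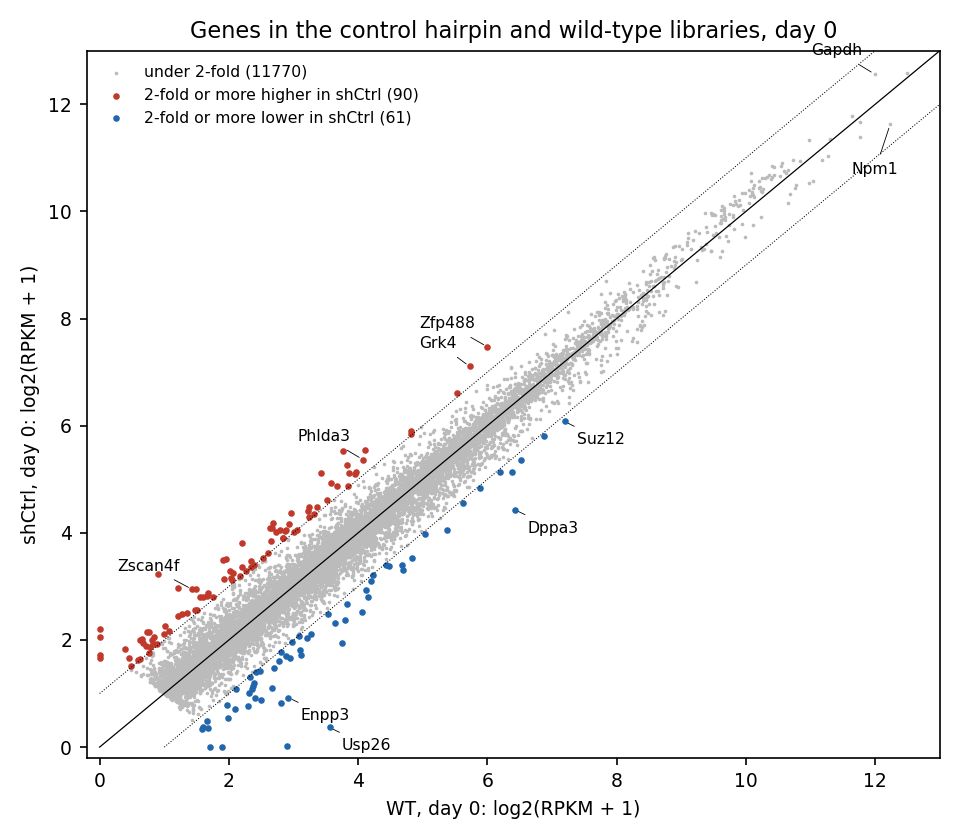
Level of each of 11921 genes in shCtrl (vertical axis) against WT (horizontal axis) at day 0, as log2(RPKM + 1), with 1 library on each axis. The solid line marks equal levels and the dotted lines 2-fold: 90 genes lie above the upper one and 61 below the lower one, with Usp26 farthest below.

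Chromosome 11 stood apart from every other autosome. Its 992 measured genes had a median ratio of -0.44, with quartiles of -0.59 and -0.26, and 910 of them (91.7%) were lower in shCtrl. Over the 19 other chromosomes, leaving out Y, medians ran between -0.01 and 0.08. Genes of chromosome 11 took 10.0% of all reads in shCtrl and 13.9% in WT, a ratio of 0.72, where the other chromosomes had ratios of 1.0 to 1.15. Among all genes, 48.5% had a ratio below 0, and 44.6% did so without chromosome 11.

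The WT library was the one that differed. At day 0 the chromosome took 9.84% of reads in shMef2c and 10.4% in KO, both near shCtrl. Of its 992 genes, 785 (79.1%) were highest in WT of the 4 day 0 libraries, against 26.7% of all genes. In the other pair of day 0 libraries, shMef2c over KO, which shares no library with the controls, the chromosome had a median of -0.04. There chromosomes 14 and 17 had medians of 0.27 and 0.29, and the 5 genes of Y one of 0.90. At day 5, the share of reads was 9.74% in shCtrl and 9.39% in WT, and the median ratio of shCtrl over WT was 0.09. The higher share was seen in the day 0 WT library and not in the WT library of day 5.

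The difference ran along the whole chromosome. Cut into 10 consecutive blocks in gene order, with 99 or 100 measured genes each, it had block medians between -0.35 and -0.53. The first block, from Sfi1 to B3gnt2, had a median of -0.48 with 92 of 100 genes lower in shCtrl. The last, which begins at Trim47, had a median of -0.35 with 86 of 99 lower. It was present at every level of expression, with medians of -0.28 for genes of 1 to 5 RPKM, -0.47 for 5 to 20, -0.49 for 20 to 100 and -0.45 above 100. On the other chromosomes these medians were 0.03, 0.01, 0.02 and 0.09. The pseudocount makes the ratio of the lowest class smaller. Without the 20 genes of most reads, the chromosome still took 7.1% of reads in shCtrl and 9.9% in WT. Chromosome copy number was not measured, and its part in the difference was not tested.

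**Figure D2:**
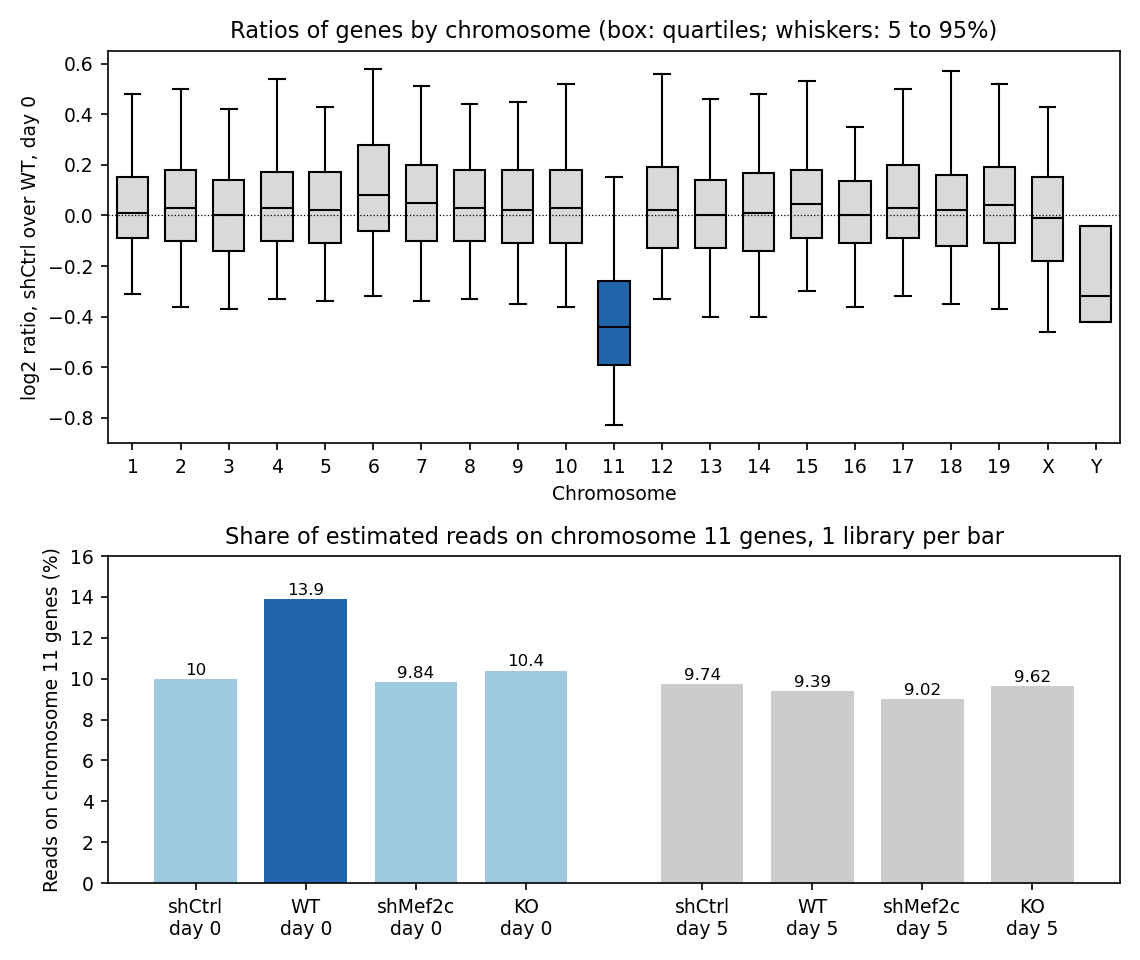
Upper panel: log2 ratio of shCtrl over WT at day 0 for the measured genes of each chromosome, with the box at the quartiles and the median, and whiskers at the 5th and 95th percentiles; the box of chromosome 11 lies at -0.59 to -0.26 and those of the other autosomes span 0. Lower panel: percent of estimated reads on genes of chromosome 11 in each of the 8 libraries, 1 bar per library, with WT at day 0 at 13.9 and the others between 9.02 and 10.4.

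Among its genes were some of the most abundant of the cell. Npm1, which encodes the nucleolar protein nucleophosmin, had 3161.65 RPKM in shCtrl and 4812.12 RPKM in WT, the largest difference downward in RPKM. It had 2756.73 RPKM in shMef2c and 4349.45 RPKM in KO, so for Npm1 the KO library lay nearer to WT. Ppia, the peptidyl-prolyl isomerase cyclophilin A, had 2677.98 RPKM in shCtrl and 3471.59 RPKM in WT. The next of the 5 largest were Actg1 (cytoplasmic actin), Rpl26 (a ribosomal protein) and Eif4a1 (a translation initiation helicase), and all 5 are on chromosome 11. Top2a, the topoisomerase that untangles replicated DNA, had 161.09 RPKM in shCtrl and 256.48 RPKM in WT, with 150.63 RPKM in shMef2c and 152.81 RPKM in KO.

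Chromosome 11 held 17 of the 61 genes called lower, 1.71% of its measured genes against 0.512% of all genes. It held 3 of the 90 called higher, 0.302% against 0.755%. The called genes of the next sentences were named after their values were seen. Suz12, a core subunit of the Polycomb repressive complex PRC2, had 66.63 RPKM in shCtrl and 145.55 RPKM in WT, with 62.79 RPKM in shMef2c and 97.04 RPKM in KO. Appbp2 had 34.02 RPKM in shCtrl and 82.53 RPKM in WT, with 32.56 RPKM in shMef2c and 33.02 RPKM in KO. Calcoco2, an autophagy receptor, had 54.69 RPKM in shCtrl and 116.0 RPKM in WT. In each of these WT was the highest of the 4 libraries. The 3 called higher against the chromosome's trend were Grb10, Dcxr and Ccl3. Without chromosome 11, 131 of 10929 genes were called (1.2%), 87 higher (0.796%) and 44 lower (0.403%), and the spread of all ratios fell to an SD of 0.29, against 0.32 with it.

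Genes switched on by p53 were higher in shCtrl. All 24 genes of the list, Trp53 itself among them, passed the minimum of expression. Their median ratio was 0.67, and 21 were above 0, where 51.2% of all genes were. By 1.5-fold or more, 14 were higher, where 3.24% of all genes were. At 2-fold, 7 were higher and 0 lower, and the share of all genes called higher was 0.755%. None of the 7 is on chromosome 11.

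Promoters of the list were searched for the p53 half-site consensus, the 10-base unit that p53 binds in pairs, on both strands (the consensus reads alike on both). The window ran from 250 bases before to 50 after the start in RefSeq, assembly GRCm38.p6. Of the 24 genes, 18 had a promoter in the table and 10 of these held at least 1 half-site, 55.6%. Of all 27025 genes with a promoter, 9.55% held one, and of the 9571 measured here, 8.27%. Cdkn1a, Mdm2, Ccng1, Bax and Aen are shown, since they are classical targets and their windows can be read beside their levels. Capitals mark the half-sites. Each is written 5′ to 3′ on the strand of the gene.
Cdkn1a: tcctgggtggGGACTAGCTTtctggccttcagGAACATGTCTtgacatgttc
Mdm2: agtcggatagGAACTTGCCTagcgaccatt
Ccng1: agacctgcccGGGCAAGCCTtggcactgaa
Bax: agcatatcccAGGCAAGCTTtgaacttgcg
Aen: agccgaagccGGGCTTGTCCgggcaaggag
In GRCm38.p6 these lie at chr17:29090896-29090947 (+ strand), chr10:117710925-117710954 (- strand), chr11:40755452-40755481 (- strand), chr7:45467080-45467109 (- strand) and chr7:78895927-78895956 (+ strand). The Cdkn1a stretch has 2 half-sites, the first beginning 73 bases before the start. In the others the half-site begins 186, 185, 201 and 121 bases before it. Of the 7 genes called higher, 4 had a promoter in the table (Bbc3, Btg2, Eda2r and Phlda3), and 0 of the 4 held the consensus in this window. A gene counted if any of its listed starts held a match. The stretch shown is from the first listed start with a match before it. Since the list was made of known p53 targets, its higher share was likely from the outset and says nothing about these libraries. A match is a description of the letters only.

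The genes called higher act at several ends of the p53 response. Phlda3, which restrains the kinase Akt, had 40.31 RPKM in shCtrl and 15.83 RPKM in WT, with 50.64 RPKM in shMef2c and 30.57 RPKM in KO, a log2 ratio of 1.30 between the controls. Its share of reads in shCtrl was 2.55 times that in WT, with a 95% interval of 2.29 to 2.84. Intervals on such ratios are exact (Clopper-Pearson) and cover counting error only.

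The genes for the cell death factors Puma and Noxa, which block the survival proteins of the Bcl-2 family, were both called. Bbc3 (Puma) had 15.17 RPKM in shCtrl and 5.63 RPKM in WT, with 18.31 RPKM in shMef2c and 9.59 RPKM in KO. Pmaip1 (Noxa) had 8.51 RPKM in shCtrl and 3.17 RPKM in WT, with 13.91 RPKM in shMef2c and 13.07 RPKM in KO. In both, WT was the lowest of the 4 libraries. Bax, the pore-forming member, had 184.09 RPKM in shCtrl and 128.38 RPKM in WT and was not called.

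Perp, a membrane protein of p53-dependent death and of desmosomes, had 21.44 RPKM in shCtrl and 8.43 RPKM in WT, with 32.03 RPKM in shMef2c and 14.19 RPKM in KO. Btg2, an inhibitor of proliferation, had 28.29 RPKM in shCtrl and 11.82 RPKM in WT, with 36.73 RPKM in shMef2c and 24.46 RPKM in KO. Trp53inp1, a cofactor of p53, had 58.71 RPKM in shCtrl and 27.33 RPKM in WT, with 73.97 RPKM in shMef2c and 50.26 RPKM in KO. Each of these ran in the order shMef2c, shCtrl, KO and WT from high to low. Eda2r, a receptor of the tumour necrosis factor family on chromosome X, had 15.64 RPKM in shCtrl and 7.27 RPKM in WT. Plk2, a kinase, fell just short of the limit with 36.64 RPKM in shCtrl and 17.91 RPKM in WT.

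The best known targets differed less. Mdm2, the ubiquitin ligase that degrades p53, had 102.42 RPKM in shCtrl and 62.43 RPKM in WT, with 125.71 RPKM in shMef2c and 101.12 RPKM in KO. Ccng1, which encodes cyclin G1, had 135.47 RPKM in shCtrl and 81.55 RPKM in WT. It was higher in shCtrl although it lies on chromosome 11. Cdkn1a, the cyclin-dependent kinase inhibitor p21, had 96.64 RPKM in shCtrl and 78.73 RPKM in WT, a log2 ratio of 0.29.

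The members at the other end were Trp53, Rrm2b and Sesn1. Trp53, on chromosome 11, had 308.67 RPKM in shCtrl and 380.05 RPKM in WT, with 269.52 RPKM in shMef2c and 268.69 RPKM in KO, a log2 ratio of -0.30. Its transcript was therefore highest in the library in which most of its targets were lowest. Rrm2b, a ribonucleotide reductase subunit, had 1.79 RPKM in shCtrl and 2.44 RPKM in WT. Sesn1, a stress-responsive regulator of growth signalling, had 6.61 RPKM in shCtrl and 6.73 RPKM in WT. RNA levels do not give the amount or activity of the p53 protein, which was not measured.

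**Figure D3:**
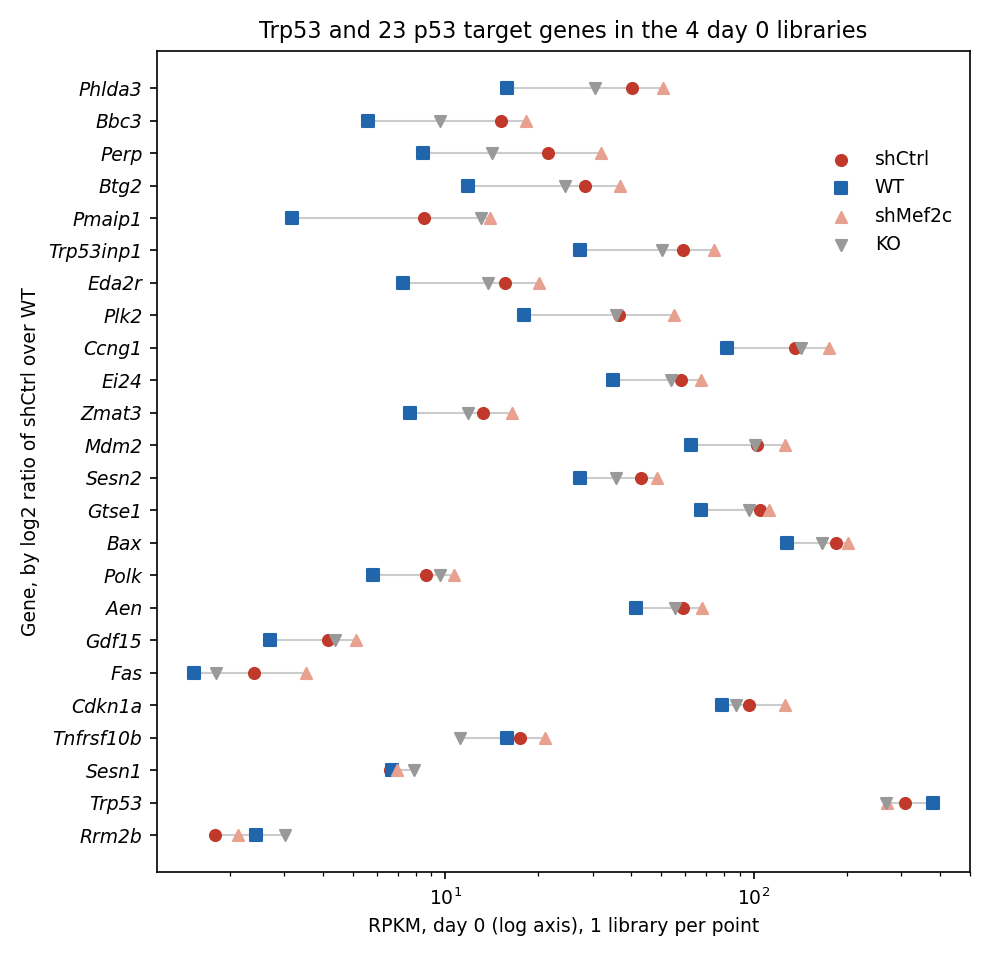
RPKM of the 24 genes of the p53 list in the 4 day 0 libraries (log axis), 1 point per library, with genes ordered by the ratio of shCtrl over WT from high to low. WT (squares) is the lowest point for 20 of the 24 genes, and Trp53 has its highest point in WT.

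WT was the lowest of the 4 libraries for 20 of the 24 genes (83.3%), where it was lowest for 32.0% of all genes. Both hairpin libraries were above both libraries without a hairpin for 17 of the 24 (70.8%), and for 21.1% of all genes. In shMef2c over KO, the list's median was 0.37 with 22 of 24 above 0, and the median of all genes was 0.01. At day 5 the shCtrl over WT ratio ran the other way, with a median of -0.30 and 4 of 22 measured members above 0. The hairpin, the handling of the lines and the state of the WT culture cannot be told apart with 1 library each.

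Outside the list, further genes known to respond to p53 were among those called higher. They were picked after their values were seen and support nothing on their own. Trp73, which encodes the p53 relative p73, had 3.07 RPKM in shCtrl and 0.57 RPKM in WT, with 4.51 RPKM in shMef2c and 1.51 RPKM in KO. Zfp365 had 15.96 RPKM in shCtrl and 5.33 RPKM in WT, Ptp4a3 (a phosphatase) had 45.87 RPKM in shCtrl and 16.2 RPKM in WT, and Ptprv (a receptor phosphatase) had 4.93 RPKM in shCtrl and 1.77 RPKM in WT. All 4 were lowest in WT of the day 0 libraries.

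Several of the genes called higher were abundant, so that counting error was small. Zfp488, a zinc finger gene, had 176.52 RPKM in shCtrl and 63.06 RPKM in WT, with 192.13 RPKM in shMef2c and 135.14 RPKM in KO. Its share of reads was 2.8 times that in WT (interval 2.72 to 2.89). Grk4, a kinase of G protein-coupled receptors, had 136.88 RPKM in shCtrl and 51.88 RPKM in WT, with 140.95 RPKM in shMef2c and 106.99 RPKM in KO. For both genes the other 3 libraries lay together above WT.

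Others among the 20 highest ratios of genes with a proper symbol were tissue genes at modest levels. Cdx1, a caudal homeobox gene and Wnt target, had 16.07 RPKM in shCtrl and 5.22 RPKM in WT, with 27.68 RPKM in shMef2c and 17.22 RPKM in KO. Anks1b, a scaffold protein of synapses, had 17.19 RPKM in shCtrl and 5.43 RPKM in WT. An odorant and a vomeronasal receptor gene were also among the 20, Olfr613 with 37.42 RPKM in shCtrl and 13.18 RPKM in WT, and Vmn2r55 with 19.72 RPKM in shCtrl and 6.77 RPKM in WT.

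Some of the 20 need care. Hist1h4n, a histone gene with near-identical copies, had 3.14 RPKM in shCtrl (22 reads) and is listed at 0 in WT, with 0.06 RPKM in shMef2c and 0.32 RPKM in KO, so here shCtrl is the library apart. Zbed5 had 45.44 RPKM in shCtrl and 12.65 RPKM in WT, yet its share of reads was only 1.56 times that in WT (interval 1.39 to 1.75), and on estimated counts it fell below the 2-fold limit. Mup6 belongs to a family of near-identical urinary protein genes, and its 6.85 RPKM in shCtrl and 1.31 RPKM in WT could be split differently among the copies.

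**Figure D4:**
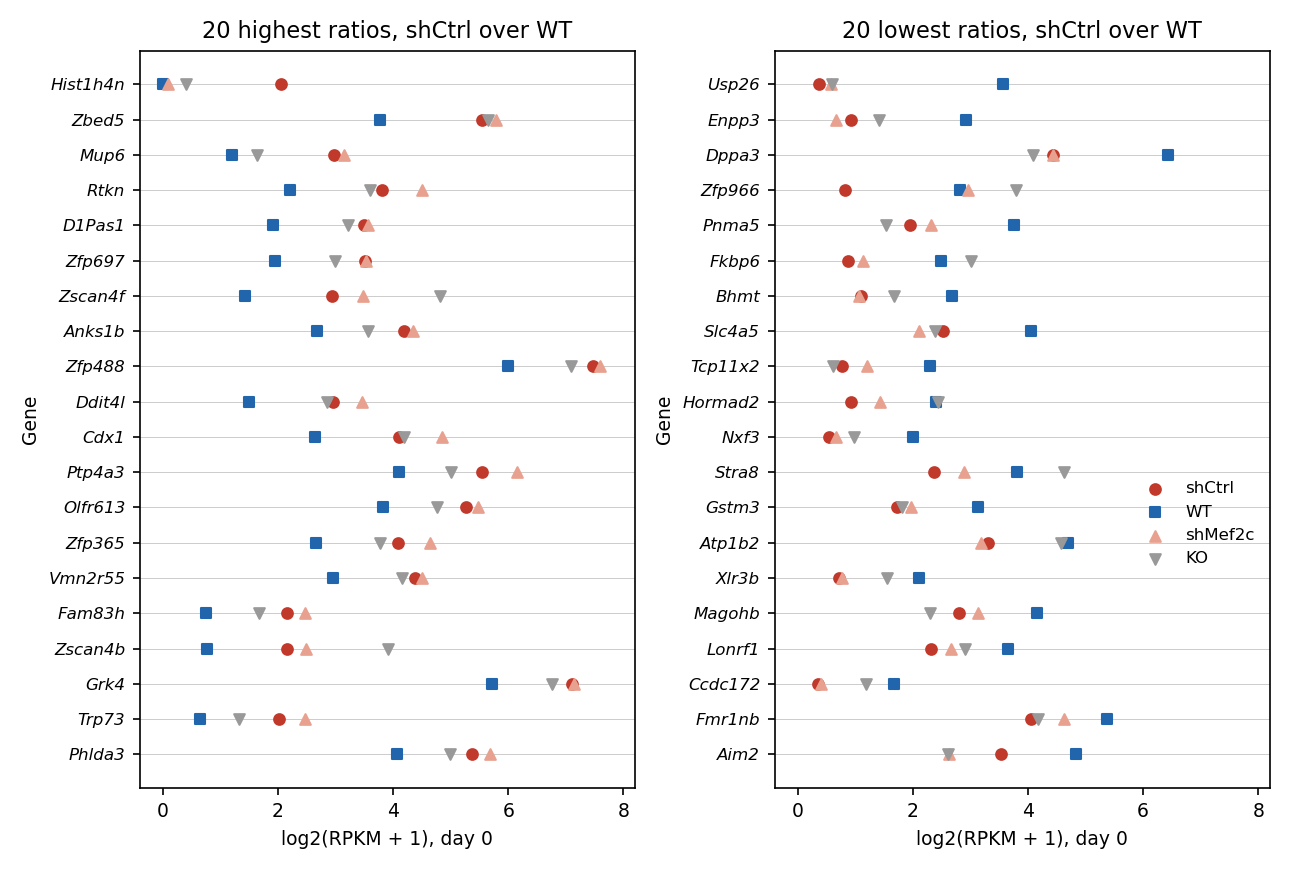
Level, as log2(RPKM + 1), of the 20 genes with the highest (left) and the 20 with the lowest (right) ratios of shCtrl over WT at day 0 in the 4 day 0 libraries, 1 point per library. Genes under 20 reads and those with Gm, Rik or LOC symbols are left out. Among these is Gm14434, with 0.01 RPKM in shCtrl, 6.49 RPKM in WT, 10.05 RPKM in shMef2c and 13.69 RPKM in KO, so that shCtrl was the low one. For most genes WT (squares) lies at one end and the other 3 libraries lie together; exceptions include Hist1h4n, Zfp966, Stra8 and Fkbp6.

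The lowest ratio belonged to Usp26, a deubiquitinase gene of chromosome X known from the testis. It had 0.29 RPKM in shCtrl (33 reads) and 10.78 RPKM in WT (1243 reads), with 0.50 RPKM in shMef2c and 0.51 RPKM in KO. The log2 ratio was -3.19, and the share of reads in shCtrl was 0.0267 times that in WT (interval 0.0183 to 0.0377). It was at 0.51 RPKM or less in every day 0 library but WT. Chromosome X held 9 of the 61 lower calls, 2.24% of its 402 measured genes against 0.512% of all genes, among them Pnma5, Tcp11x2, Nxf3, Xlr3b and Fmr1nb. Its median ratio over all genes was -0.01. Tcp11x2, Nxf3 and Xlr3b were under 1 RPKM in shCtrl and, like Usp26, passed the minimum through WT alone. The minimum favours a lower call for such genes, so the 2.24% is in part set by it.

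Dppa3 (Stella), a maternal factor that protects the methylation of the egg's genome and marks the most naive stem cells and early germ cells, was also low. It had 20.58 RPKM in shCtrl and 84.87 RPKM in WT, with 20.59 RPKM in shMef2c and 16.03 RPKM in KO, a log2 ratio of -1.99. The other 3 libraries were alike and WT alone was high. It was the 1 gene of 26 in the naive pluripotency list called lower, where 0.512% of all genes were. The list as a whole leaned the other way, with a median of 0.17 and 22 of 26 above 0, where 51.2% of all genes were. Utf1, a chromatin factor of stem cells, led it with 133.89 RPKM in shCtrl and 81.15 RPKM in WT. Klf4, one of the reprogramming factors, had 144.79 RPKM in shCtrl and 99.39 RPKM in WT, and Tbx3 had 85.86 RPKM in shCtrl and 60.06 RPKM in WT.

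The core factors differed little. Pou5f1 (Oct4) had 658.71 RPKM in shCtrl and 541.76 RPKM in WT. Sox2 had 251.68 RPKM in shCtrl and 246.66 RPKM in WT. Nanog had 415.84 RPKM in shCtrl and 369.85 RPKM in WT. The 15 measured genes of the transition to epiblast had a median ratio of 0.30, with 12 above 0 and 0 called in either direction. Of all genes, 51.2% were above 0 and 1.27% were called.

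Most germ cell genes past the minimum were lower in shCtrl. Of 17 measured, 15 were below 0, 3 were called lower and 0 higher, and the median was -0.41. A gene can pass the minimum through WT alone, as Fkbp6 did, so these counts are in part set by it. The median was -0.26 without the minimum of expression and -0.65 where it was raised to 5 RPKM. In all, 0.512% of genes were called lower. Stra8, a gatekeeper of meiosis, had 4.17 RPKM in shCtrl and 12.94 RPKM in WT, with 6.36 RPKM in shMef2c and 23.55 RPKM in KO. Fkbp6, a factor of male meiosis and the piRNA pathway, had 0.83 RPKM in shCtrl and 4.64 RPKM in WT, with 1.2 RPKM in shMef2c and 7.06 RPKM in KO. Xlr3a, an X-linked gene with near-identical copies, had 1.02 RPKM in shCtrl and 3.99 RPKM in WT, with 2.19 RPKM in shMef2c and 6.78 RPKM in KO.

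For most of these genes the libraries split by hairpin rather than WT standing alone. Both hairpin libraries were below both of the others for 11 of the 17 germ cell genes (64.7%), where 19.8% of all genes showed this. Since a gene can pass the minimum through WT alone, which favours this order, the count is in part set by it. In shMef2c over KO the list's median was -0.78, with 5 of 19 above 0. At day 5 the shCtrl over WT median was 0.02. Beyond the list, Dmrt1, a sex-determining transcription factor picked after its value was seen, had 9.49 RPKM in shCtrl and 24.63 RPKM in WT, with 5.73 RPKM in shMef2c and 19.05 RPKM in KO. Hormad2, a protein of meiotic chromosomes encoded on chromosome 11, had 0.89 RPKM in shCtrl and 4.28 RPKM in WT, with 1.70 RPKM in shMef2c and 4.38 RPKM in KO.

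Further genes among the 20 lowest ratios of genes with a proper symbol serve metabolism, transport and defence. Enpp3, a nucleotide pyrophosphatase of the cell surface, had 0.90 RPKM in shCtrl and 6.57 RPKM in WT. Slc4a5, a bicarbonate transporter, had 4.73 RPKM in shCtrl and 15.66 RPKM in WT, with 3.32 RPKM in shMef2c and 4.20 RPKM in KO. Bhmt, an enzyme of methionine synthesis, had 1.14 RPKM in shCtrl and 5.38 RPKM in WT. In all of these WT was the highest of the 4. Zfp966 differed, with 0.77 RPKM in shCtrl and 6.02 RPKM in WT but 6.72 RPKM in shMef2c and 12.8 RPKM in KO, so that shCtrl was the low one.

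Genes of defence against nucleic acids and viruses tended to be lower in shCtrl. Aim2, a sensor of DNA in the cytoplasm, had 10.57 RPKM in shCtrl and 27.65 RPKM in WT, with 5.21 RPKM in shMef2c and 5.11 RPKM in KO. In the interferon response list, 24 of 35 genes were below 0 with a median of -0.27, 2 were called lower and 0 higher. Of all genes, 48.5% were below 0 and 0.512% were called lower. The called ones were Oasl2, with 14.72 RPKM in shCtrl and 31.9 RPKM in WT, and Ifi35, with 6.65 RPKM in shCtrl and 16.5 RPKM in WT. Of the 35 genes, 5 are on chromosome 11, Ifi35 among them, and without them 19 of 30 were below 0, 1 was called lower and the median was -0.21. Of all genes without chromosome 11, 44.6% were below 0 and 0.403% were called lower. WT was the highest of the 4 libraries for 17 of the 35. The 13 measured genes of the small RNA machinery, which process hairpins, had a median of 0.00, with Dicer1 at 16.71 RPKM in shCtrl and 19.9 RPKM in WT.

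Stem cells in rare cases switch on genes of the embryo at its first divisions, the 2-cell-like list, of which the Zscan4 genes are the best known. Of 22 genes of this list in the table, 8 passed the minimum, some of them only through their level in shCtrl, so their counts are no sign of a direction. Among the 8 the median was 0.95, with 7 above 0 and 3 called, and it was 0.19 over the list without the minimum. Zscan4f had 6.70 RPKM in shCtrl and 1.70 RPKM in WT, with 10.15 RPKM in shMef2c and 27.07 RPKM in KO. Zscan4b had 3.45 RPKM in shCtrl and 0.69 RPKM in WT, with 4.59 RPKM in shMef2c and 14.08 RPKM in KO. For both, WT was the lowest and KO by far the highest. WT was the lowest library for 7 of the 8 genes, but the minimum favours this, so it too is no sign of a direction. In shMef2c over KO the list's median was -1.22 with 0 of 12 above 0. The Zscan4 genes are near-identical copies, so reads cannot be placed on 1 of them with certainty. More cells in that state and more RNA per cell cannot be told apart in bulk samples, here or for any other list.

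Ribosomal protein genes had small ratios of mostly 1 sign. Of 80 measured, 71 had a ratio above 0, with a median of 0.29, 0 called in either direction and 3 past 1.5-fold upward. Of all genes, 51.2% were above 0 and 3.24% past 1.5-fold upward, so the 3 of 80 were near the share of all genes. Of the 9 below 0, 7 are the members on chromosome 11, and the median of the other 73 was 0.32. Rpl32 had 1687.07 RPKM in shCtrl and 1076.8 RPKM in WT, with 1924.83 RPKM in shMef2c and 1283.38 RPKM in KO. Rps2 had 2588.55 RPKM in shCtrl and 2014.61 RPKM in WT. WT was the lowest library for 61 of the 80 (76.2%). In shMef2c over KO the median was 0.04.

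Gapdh, the glycolytic enzyme often used as a reference in expression assays, had the largest difference upward in RPKM, with 6046.63 RPKM in shCtrl and 4079.35 RPKM in WT. It had 6860.07 RPKM in shMef2c and 5206.91 RPKM in KO, so its level varied among all 4 libraries. Actg1, also used as a reference, ran the other way, with 1523.87 RPKM in shCtrl and 2094.48 RPKM in WT. Of 33 measured genes of glycolysis and the hypoxia response, 23 were above 0 with a median of 0.17 and 0 called. Of all genes, 51.2% were above 0 and 1.27% were called. Without the 3 on chromosome 11 the median was 0.28, with 23 of 30 above 0. Ldha, which makes lactate, had 1000.14 RPKM in shCtrl and 656.65 RPKM in WT. Tpi1, a glycolytic isomerase, had 350.75 RPKM in shCtrl and 216.3 RPKM in WT. Gapdh, Tpi1 and Rpl32 are on chromosome 6, which had the highest median ratio of the chromosomes, 0.08. Of its genes 35.1% were below 0, against 44.6% of all genes without chromosome 11. The part of chromosome 6 in these differences was not tested.

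The list of imprinted genes, which are expressed from the copy of one parent, gave 1 call each way among 23 measured. Imprinted genes outside the list were not counted. Of all genes, 0.755% were called higher and 0.512% lower. Grb10, a growth restrainer on chromosome 11, had 15.55 RPKM in shCtrl and 5.94 RPKM in WT, with 16.12 RPKM in shMef2c and 6.29 RPKM in KO. Here the hairpin libraries were alike and so were the others. Plagl1, a growth-regulating zinc finger gene, had 1.80 RPKM in shCtrl and 5.52 RPKM in WT, with 1.87 RPKM in shMef2c and 2.74 RPKM in KO. The list's median was -0.14.

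Among the lists of signals and lineages, a few genes at modest levels were called, where 0.755% of all genes were called higher. Among Wnt targets, 1 of 11 was called higher, Cdx1, and 5 of the 11 are on chromosome 11. Axin2, a feedback inhibitor of Wnt signalling on that chromosome, had 8.25 RPKM in shCtrl and 14.07 RPKM in WT, with 8.95 RPKM in shMef2c and 7.80 RPKM in KO. The list's median was -0.13 with them and 0.05 without them, so its direction rests on the chromosome. Of the FGF-ERK feedback genes, 1 of 17 was called higher, Spry4, with 5.98 RPKM in shCtrl and 2.39 RPKM in WT. Of the mesendoderm and mesoderm genes, 2 of 7 measured were called higher, Cdx1 and Eomes, and the list's median of 0.31 was -0.04 without the minimum of expression. Eomes, a T-box gene of mesendoderm and trophoblast, had 4.6 RPKM in shCtrl and 1.41 RPKM in WT, with 4.64 RPKM in shMef2c and 6.53 RPKM in KO.

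The feeder fibroblast list of 28 genes had a median of -0.02 with 0 called, and at most 0.31 above or 0.40 below 0 on the log2 scale (-0.40 for Lum). In shMef2c over KO its median was 0.73. The 4 measured Y-linked genes, a sign of the male line, were all lower in shCtrl, with a median of -0.37. Eif2s3y had 41.63 RPKM in shCtrl and 57.37 RPKM in WT, with 48.64 RPKM in shMef2c and 29.57 RPKM in KO. Cholesterol synthesis genes (28, median -0.07), heat shock genes (16, median 0.01) and cell cycle genes (30, median 0.13) had 0 calls. Of all genes 1.27% were called, so 0 calls in lists of this size, the feeder list among them, say little. Mef2c, the target of the other hairpin, had 0.16 RPKM in shCtrl (20 reads) and 0.23 RPKM in WT (29 reads). The ratio of read shares was 0.693 with an interval of 0.372 to 1.27, so no difference was detectable at this depth.

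**Figure D5:**
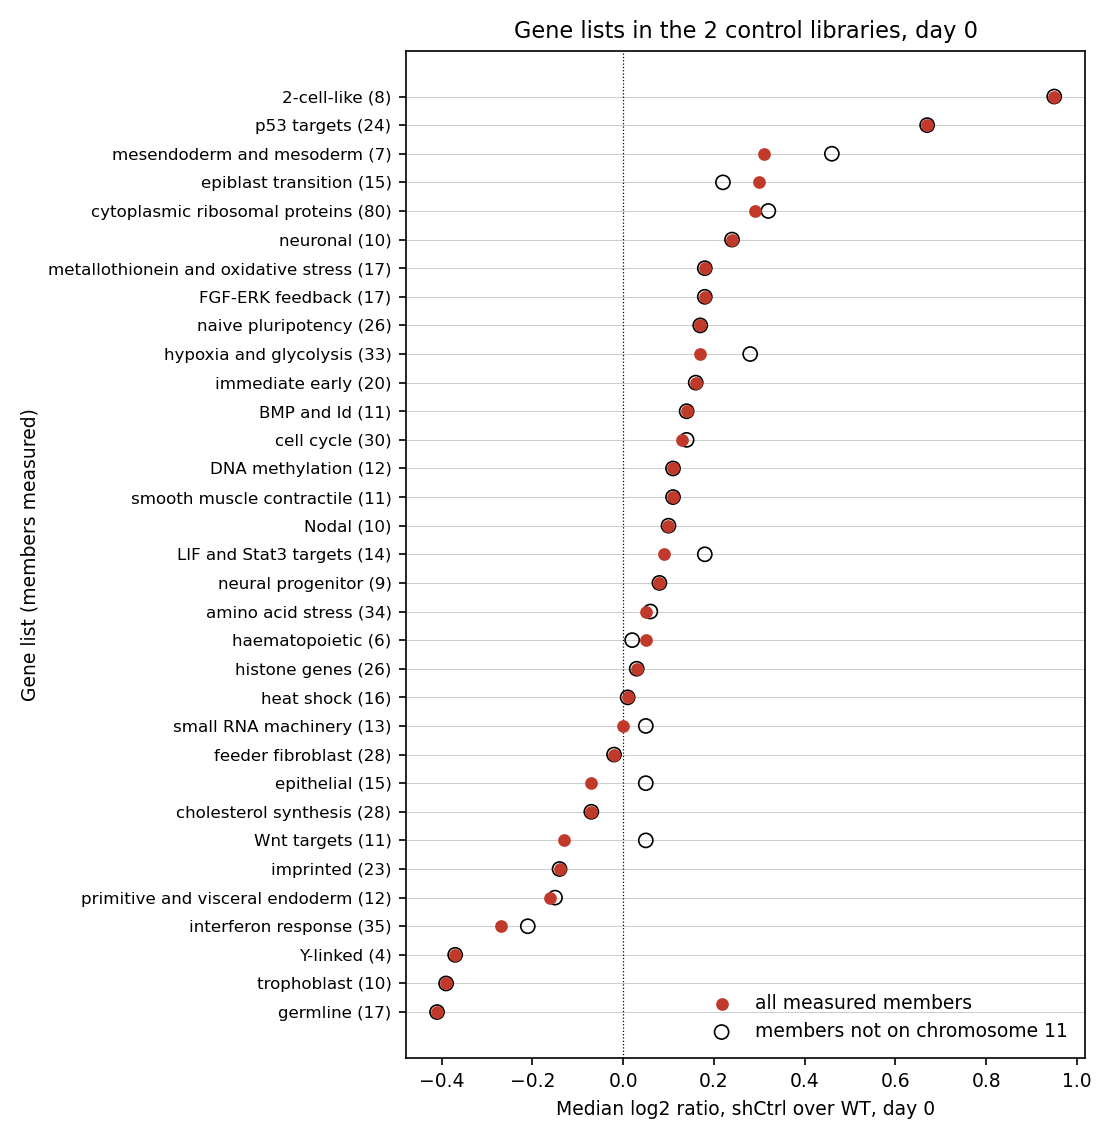
Median log2 ratio of shCtrl over WT at day 0 for each gene list with 3 or more measured members (number in brackets). Filled points are all measured members and open circles those not on chromosome 11. The 2-cell-like list (0.95) and p53 targets (0.67) lie highest and germ cell genes (-0.41) lowest. The 2-cell-like median rests on 8 genes, some past the minimum only through shCtrl, and is lower without the minimum. The Wnt target, epithelial and small RNA machinery lists cross 0 without chromosome 11.

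Over the 151 called genes, WT lay outside the range of the other 3 day 0 libraries in 137 and shCtrl did so in 39. Both shMef2c and KO were closer to shCtrl in 107 and both closer to WT in 7. In 33, shMef2c was closer to shCtrl and KO to WT, the split by hairpin, and in 4 the reverse held. Among the 90 higher genes WT was below the other 3 in 84, and among the 61 lower it was above them in 53. Since the genes were chosen for a difference between shCtrl and WT, one of these was likely to lie at an edge.

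Few of the calls recurred in pairs that share no library with the day 0 controls. Of the 90 higher genes, 88 were measured in shMef2c over KO, where 12 were called higher and 10 lower, with a median of 0.49. That pair had 282 calls among 12165 genes (2.32%), 175 higher (1.44%) and 107 lower (0.88%). Of the 61 lower genes, 51 were measured there, with 2 called higher, 10 lower and a median of -0.36. In the same control lines at day 5, 60 of the 90 higher genes were measured, with 0 called higher, 2 lower and a median of -0.08. Of the 61 lower genes, 38 were measured at day 5, with 0 called in either direction and a median of 0.03. At day 5 the controls differed by 2-fold in 128 of 12845 genes (0.996%), 93 higher (0.724%) and 35 lower (0.272%). Cell type and culture changed between the days along with the libraries.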

How the data were processed

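Polyadenylated RNA of mouse 46C cells was sequenced, 1 library per group. The authors deposited a single table for day 0, which gives RPKM and estimated counts of reads for each library per the file headers. For day 5 the authors deposited FPKM values and expected counts in 1 table for each library, per the file headers. RSEM, HISAT, HISAT2, Bowtie and Bowtie2 and build mm9 are named in the submitters' processing notes, without roles or versions. The sources used here do not state whether counting used strand. Reads of antisense or overlapping genes can therefore not be separated.

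Groups came from the labels. From the deposited values, log2((shCtrl + 1)/(WT + 1)) was computed for genes with a mean of 1 or more, and genes were called at 2-fold. Single libraries allow no test. The same was done for shMef2c over KO at day 0 and for shCtrl over WT at day 5, each within its own table. The 37 gene lists, the members of which are given by count and median, and the rule for named genes (the 20 highest and 20 lowest ratios with 20 or more reads and a proper symbol, the 5 largest RPKM differences each way, the Mef2 family and up to 4 members per list) were chosen with earlier results of these data known. Lists of mitochondrial and of small nucleolar RNA genes found 0 genes in the table. Exact 95% intervals on read shares used scipy 1.17.1 in Python 3.11.15. Symbols turned into dates by a spreadsheet (26) were restored by gene identifier. Identifiers were matched to RefSeq GRCm38.p6 for 18873 of 19011 genes for names, chromosome and gene order only. Promoter sequences are from RefSeq GRCm38.p6. The calling was tested on simulated data.

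The alternatives tried were no filter, a mean of 5, a minimum of 20 reads, a pseudocount of 0.1, centring, TPM, TMM factors (edgeR 4.0.16) and DESeq2 1.42.0 size factors on rounded estimated counts (R 4.3.3), and folds of 1.5 and 4. Leaving out chromosome 11 was added after seeing the data.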

Additional observations from a re-analysis of the deposited data

Results flagged for a closer look

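Each of these ran in opposite directions in the same pair of lines, shCtrl over WT, at day 0 and at day 5. With 1 library per group the difference between the days was not tested, and the cell type differs between them. Grb10 had a log2 ratio of 1.25 at day 0 and -1.93 at day 5. Gm21761 had 1.10 at day 0 and -1.10 at day 5. The p53 target list had a median of 0.67 at day 0 and -0.30 at day 5. The epiblast transition list had 0.30 at day 0 and -0.20 at day 5. The list of mesendoderm and mesoderm had 0.31 at day 0 and -0.39 at day 5, and rests on 7 measured genes at day 0. Its day 0 median was -0.04 without the filter on low values, which no longer opposes day 5. The trophoblast list had -0.39 at day 0 and 0.46 at day 5, with 10 measured genes at day 0.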

How the results depend on the processing

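No paired analysis was possible because each group has 1 library. The count of 151 genes (90 higher, 61 lower) moved with the treatment of scarce genes and with the threshold. It was 304 (175 higher, 129 lower) with a pseudocount of 0.1, 83 (52 and 31) with a mean of 5 or more, 264 (144 and 120) in TPM, 814 (386 and 428) at 1.5-fold and 5 (3 and 2) at 4-fold. The 282 genes of shMef2c over KO became 583, 150 and 483 with a pseudocount of 0.1, a mean of 5 and TPM. The 128 genes of shCtrl over WT at day 5 became 330, 57 and 218. The TPM total is larger than that of the deposited values, so the pseudocount weighs less. The 2-cell-like median of 0.95 was 1.48 with a pseudocount of 0.1, 0.19 without the filter and 1.16 in TPM, and had no value with a mean of 5. The germ cell median of -0.41 was -0.26 without the filter and -0.65 with a mean of 5. The chromosome 11 median of -0.44 was -0.30 without the filter. The mesendoderm and mesoderm median reversed to -0.04 without the filter and the neuronal median to -0.12 in TPM, and the cause was not tested. The p53 target median stayed between 0.63 and 0.71 under all settings tried. With 1 library per group, differences between cultures, preparation and sequencing cannot be told apart, and intervals cover counting error only.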
